A study of Mus musculus with 24 samples.

Results

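Gene expression in wild-type mouse liver was compared between 2 sets of libraries that share genotype, strain and tissue and differ in the digit 2 or 4 of their sample names. The members were chosen by that name alone: 12 of the 24 libraries of the series, 6 in set 2 and 6 in set 4. All 12 came from livers of wild-type C57BL/6 mice and carried no L2d13, the overexpressed form that the labels call L2 delta13. The other 12 libraries, 6 per set, came from L2d13 livers and entered the fit as 2 further groups. Each SE and limma p-value therefore draws on the spread of all 24 libraries. The labels do not say what the digit stands for, and give no age, treatment or time that separates the sets. The running numbers in the sample names are all lower in set 4 than in set 2, so whatever they follow cannot be told apart from the set. Separate animals are not stated in the labels, and the p-values refer only to the variation among these libraries, some of which may be technical.

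Livers of one genotype can differ in many transcripts, because hepatocytes follow the time of day, feeding, hormones and exposure to foreign compounds. Cytochromes P450 of the Cyp3a family oxidise drugs, steroids and bile acids and are controlled by nuclear receptors such as the pregnane X receptor. Interferon-stimulated genes form a shared antiviral programme, and immediate early genes such as Egr1 respond within minutes to growth signals and to stress. Whole liver also holds Kupffer cells, which are its resident macrophages, and sinusoidal endothelial cells beside the hepatocytes.

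The libraries differed from each other before any gene was compared. FPKM (fragments scaled to transcript length and to the mapped total) carries no read total, so depth is unknown, but the steps between low FPKM values show what 1 fragment is worth relative to other libraries. This fragment value lay between 0.953 and 1.01 in 7 wild-type libraries, called ordinary here (set 2 replicates 1 to 5 and set 4 replicates 7 and 8). It lay between 1.05 and 1.29 in the other 5 (set 2 replicate 6 and set 4 replicates 9 to 12). The highest value was that of set 2 replicate 6. As 4 of 6 libraries of set 4 and 1 of 6 of set 2 were in the higher class, the difference within the 7 ordinary libraries, 5 against 2, is also given for every called gene and for many lists and uncalled genes. The fit that gave it also held the ordinary L2d13 libraries, 5 per set, which enter its spread and p-values. Correlations of log2(FPKM + 1) had a median of 0.988 within sets and 0.985 between sets. Set 2 replicate 6 and set 4 replicate 8 correlated least with their own set (medians 0.968 and 0.980). The labels were checked with known genes: Loxl2 lay between 0.36 and 1.26 FPKM and its annotated copy Gm21451, with which it can share reads, between 0.03 and 1.27. In the L2d13 libraries Gm21451 ran from 40.63 to 266.18, far above wild type, while Loxl2 ran from 0.83 to 2.26 and overlapped it. In all 12 wild-type libraries the Y-linked gene Ddx3y lay between 8.59 and 15.03 and the hepatocyte marker Alb (albumin) reached at least 24129. Cela3b of the exocrine pancreas was listed at 0 in each of them.

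The question was which transcripts differed between the sets when genotype did not. Of 10532 genes tested, 20 (0.190%) were called at an adjusted p under 0.05 by limma with Benjamini-Hochberg adjustment. In set 4, 9 (0.0855%) were higher and 11 (0.104%) lower. The higher genes were Egr1, Serpine2, Nat8, C4a, Raet1e, Sucnr1, Parp16, Slc10a2 and the predicted gene Gm31493. The lower genes were Asic5, Cyp3a59, Cyp3a11, Slc13a3, Ifit3, Abcd2, Slc39a4, Glul, Gbp3, Ces2a and Ifit2. An unadjusted p under 0.05 was reached by 852 genes (8.09%), of which 148 (1.41%) were higher and 704 (6.68%) lower. Signs and unadjusted counts of the gene lists below are to be read against these shares, which lean to the lower side. The median difference over all genes was -0.08 on the log2 scale, and 0.08 within the 7 ordinary libraries, the level against which values from those libraries are to be read. Median-of-ratios scaling shifted it by 0.08 and turned the split of called genes into 12 higher and 5 lower, and quantile normalization into 12 higher and 7 lower. All 20 genes kept their direction under both. Fitted alone, the 12 wild-type libraries gave 3 higher and 4 lower calls, all 7 among these 20.

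**Figure D1:**
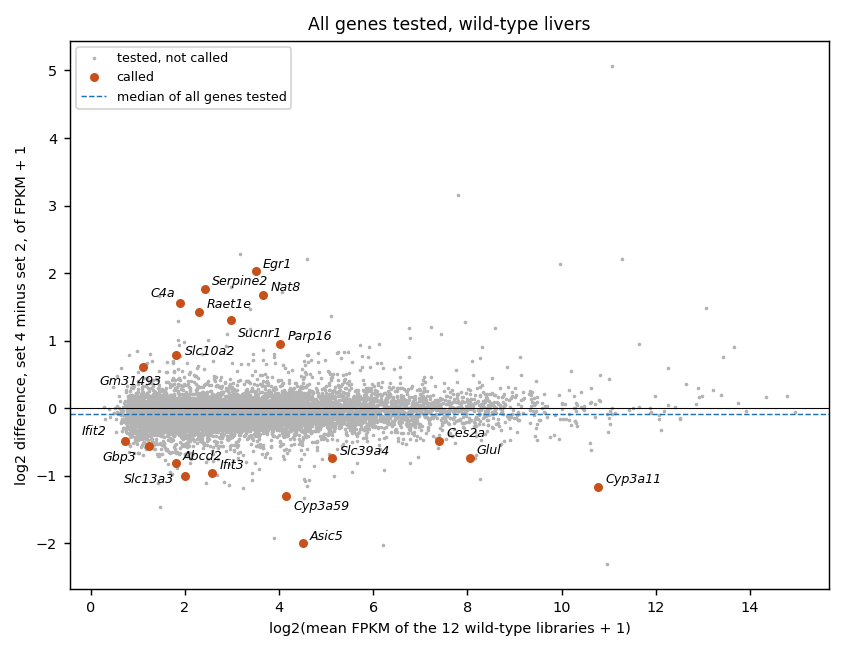
Log2 difference of FPKM + 1 (set 4 minus set 2) against the log2 mean FPKM of the 12 wild-type libraries, 1 point per tested gene, with the 20 called genes in colour and named. Called genes lie on both sides of 0, and several uncalled genes lie farther from 0 than most called ones, up to Mup9 at 5.07.

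The 2 sets of FPKM did not overlap in 13 of the 20 called genes. Over all genes tested, the sets did not overlap in 46 (0.437%), with set 4 above set 2 in 12 (0.114%) and below it in 34 (0.323%). Within the 7 ordinary libraries all 20 called genes had the same direction and an unadjusted p under 0.05, a level that 872 genes (8.28%) reached there. These libraries are a part of the same 12, so this is not a second sample. Only Serpine2 was called in them (1 of 10532 genes, 0.00949%). Leaving out each library in turn kept the calls of Serpine2, Raet1e, C4a, Asic5, Cyp3a59, Cyp3a11 and Slc13a3 in all 12 fits. The other 13 called genes lost the call in at least 1 fit, and Glul kept it in 2 of 12, with an adjusted p of up to 0.155.

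**Figure D2:**
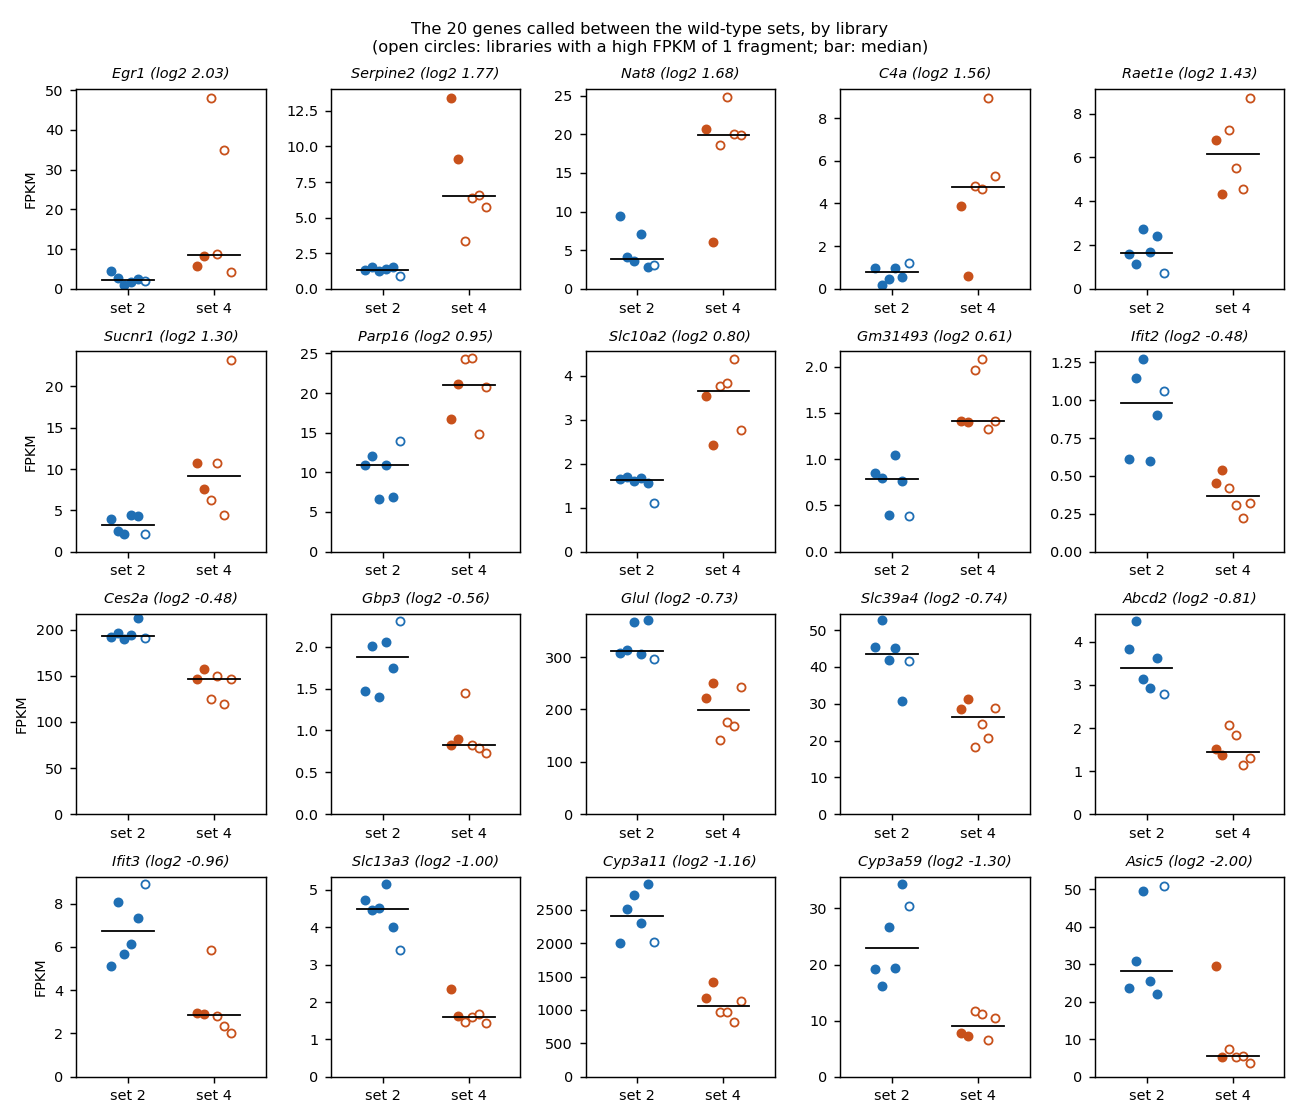
FPKM of the 20 called genes in each wild-type library, set 2 (blue) beside set 4 (orange), each axis starting at 0. Bars are medians and open circles are the libraries with a high fragment value. In 13 panels no library of one set reaches the range of the other, while Egr1, Nat8, C4a, Asic5, Ifit3, Slc39a4 and Gbp3 overlap.

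Serpine2 (gene 20720), a secreted inhibitor of thrombin and plasminogen activators also known as protease nexin-1, had the smallest p. Its FPKM ran from 0.94 to 1.56 (median 1.36) in set 2 and from 3.38 to 13.41 (median 6.5) in set 4. Every library of set 4 was above every library of set 2, and the ordinary replicates 7 and 8 were the highest at 13.41 and 9.08. The log2 difference was 1.77 ± 0.21 (SE, n = 6 per set), a fold of 3.40 with the pseudocount included, and a limma adjusted p of 0.000103. In the ordinary libraries it was 2.33.

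Raet1e, a ligand of the NKG2D receptor of natural killer cells, ran from 0.73 to 2.73 FPKM (median 1.63) in set 2 and from 4.31 to 8.73 (median 6.17) in set 4. The sets did not overlap. It rose by 1.43 ± 0.18 (SE, n = 6 per set; limma adjusted p = 0.000103), and by 1.18 in the ordinary libraries. Raet1d, a close relative named after its values were seen, had medians of 5.68 and 13.16 FPKM and a difference of 0.80 that was not called (limma adjusted p = 0.201; 0.65 in the ordinary libraries). Reads of such similar genes can be assigned to either, so the share of each is uncertain.

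Egr1, an immediate early transcription factor, had the largest called rise. Set 2 ran from 1.08 to 4.5 FPKM (median 2.24) and set 4 from 4.33 to 47.96 (median 8.52). The sets overlapped only where the lowest library of set 4 fell below the highest of set 2. Replicates 9 and 11 of set 4, at 47.96 and 34.86, were far above the other 4. The log2 difference was 2.03 ± 0.39 (SE, n = 6 per set; limma adjusted p = 0.0229) and 1.26 in the ordinary libraries. That SE shares the spread of all groups, which were unequal for Egr1. The SD of its FPKM was 18.4 in wild-type set 4 and 1.16 in wild-type set 2. In L2d13 it was 1.41 in set 2 and 0.93 in set 4. The call was lost in 6 of the 12 fits without 1 library, with an adjusted p of up to 0.0746.

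Of the 17 tested immediate early genes, Egr1 was the only one called, and 6 had an unadjusted p under 0.05, all higher. Their median was 0.40, and 0.76 in the ordinary libraries, where all 17 were positive and the median over all genes was 0.08. Zfp36, whose protein binds and destabilises AU-rich messenger RNAs, did not overlap between the sets (33.25 to 77.67 FPKM, then 78.96 to 298.02) but was not called (1.19 ± 0.29, SE, n = 6 per set; limma adjusted p = 0.116; 0.84 in the ordinary libraries). Btg2, an antiproliferative gene, had medians of 3.40 and 8.52 FPKM and a difference of 1.10 (limma adjusted p = 0.175), and 1.09 in the ordinary libraries. The summed FPKM of the list ran from 133 to 490 in set 2 and from 302 to 1077 in set 4.

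Nat8, an acetyltransferase of the endoplasmic reticulum that completes mercapturic acids, ran from 2.81 to 9.45 FPKM (median 3.88) in set 2 and from 6.08 to 24.77 (median 19.95) in set 4. Only replicate 8 of set 4, at 6.08, lay within the range of set 2. The rise was 1.68 ± 0.32 (SE, n = 6 per set; limma adjusted p = 0.0229), and 1.05 in the ordinary libraries, which include replicate 8. Sucnr1, the receptor for extracellular succinate, ran from 2.13 to 4.45 FPKM (median 3.24) and then from 4.46 to 23.19 (median 9.14). The sets touched without overlapping, and replicate 12 of set 4 was the highest. Its rise was 1.30 (limma adjusted p = 0.0229), and 1.20 in the ordinary libraries.

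C4a, annotated as a pseudogene and passed over by the naming rule, ran from 0.20 to 1.22 FPKM in set 2 and from 0.59 to 8.93 in set 4. Replicate 8 lay inside the range of set 2 and the other 5 libraries of set 4 lay above it. It rose by 1.56 (limma adjusted p = 0.00782), and by 0.79 in the ordinary libraries. Its near-identical neighbour C4b, which encodes complement component C4, had medians of 180 and 161 FPKM and a difference of -0.14 that was not called (limma adjusted p = 0.806). Reads of the pair may be shared, so the level of C4a is uncertain.

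Parp16, an ADP-ribosyltransferase anchored in the endoplasmic reticulum, ran from 6.61 to 13.95 FPKM (median 10.88) in set 2 and from 14.88 to 24.36 (median 20.96) in set 4, without overlap. The rise was 0.95 ± 0.17 (SE, n = 6 per set; limma adjusted p = 0.0128), and 0.96 in the ordinary libraries. Slc10a2, the sodium-dependent bile acid transporter best known from ileum and bile duct, ran from 1.10 to 1.69 FPKM and then from 2.43 to 4.39, again without overlap. It rose by 0.80 (limma adjusted p = 0.0229), and by 0.59 in the ordinary libraries. Gm31493 was low in both sets, at 0.38 to 1.04 and 1.33 to 2.08 FPKM, with a rise of 0.61, and 0.45 in the ordinary libraries.

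Of the 4 Cyp3a genes tested, Cyp3a11 and Cyp3a59 were called lower in set 4 and Cyp3a25 and Cyp3a13 were not called. Cyp3a11, the main liver enzyme of this family in the mouse, was among the abundant transcripts of the tissue and ran from 1999 to 2892 FPKM (median 2405) in set 2. In set 4 it ran from 817 to 1412 (median 1057). The sets were far apart and neither of the ordinary libraries of set 4, at 1179 and 1412, reached set 2. The gene fell by 1.16 ± 0.14 on the log2 scale (SE, n = 6 per set; limma adjusted p = 0.000103), or 2.23-fold, and by 0.93 in the ordinary libraries.

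Cyp3a59 ran from 16.09 to 34.28 FPKM (median 23.03) in set 2 and from 6.55 to 11.74 (median 9.09) in set 4, without overlap. Its difference was -1.30 ± 0.22 (SE, n = 6 per set; limma adjusted p = 0.00751), and -1.45 in the ordinary libraries. Cyp3a25 and Cyp3a13 were added after their values were seen. Cyp3a25 ran from 266 to 502 FPKM and then from 156 to 263, also without overlap, but was not called (-0.69; limma adjusted p = 0.116; -0.61 in the ordinary libraries). Cyp3a13 had medians of 56.9 and 65.6 FPKM and a difference of 0.10 (limma adjusted p = 0.925). Sequences of this family are similar enough for reads to be shared, which leaves the split between its members uncertain.

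The promoters of the 2 called Cyp3a genes are shown because they belong to 1 family and were both called lower. Each is the 250 bases before the RefSeq start on GRCm38.p6, read on the strand of the gene. Capitals mark AGGTCA or its reverse complement TGACCT, the half-site bound by many nuclear receptors, searched on both strands. Cyp3a11 lies on the minus strand at chr5:145879855-145880104 and Cyp3a59 on the plus strand at chr5:146079008-146079257.
Cyp3a11: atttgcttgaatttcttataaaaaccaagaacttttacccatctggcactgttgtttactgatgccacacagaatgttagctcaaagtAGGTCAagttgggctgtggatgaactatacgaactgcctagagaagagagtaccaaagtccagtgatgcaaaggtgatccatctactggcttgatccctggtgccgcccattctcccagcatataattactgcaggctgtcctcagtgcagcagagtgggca
Cyp3a59: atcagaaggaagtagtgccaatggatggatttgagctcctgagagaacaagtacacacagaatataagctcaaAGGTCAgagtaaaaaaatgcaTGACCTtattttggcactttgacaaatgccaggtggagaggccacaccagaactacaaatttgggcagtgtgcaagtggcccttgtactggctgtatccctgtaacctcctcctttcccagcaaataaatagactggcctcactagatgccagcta
Cyp3a11 held 1 match, which began at -162 from the start, and Cyp3a59 held 2 on opposite strands, at -177 and -156. Of 32851 promoters of this length, 4607 (14.02%) held at least 1 match, so a match is common and describes the letters only.

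Asic5, an ion channel opened by bile acids, had the largest called fall. Set 2 ran from 22.03 to 51.02 FPKM (median 28.16) and set 4 from 3.59 to 29.56 (median 5.47). Replicate 7 of set 4, at 29.56, lay inside the range of set 2 and the other 5 libraries lay below it. The difference was -2.0 ± 0.32 (SE, n = 6 per set; limma adjusted p = 0.00349), and -1.11 in the ordinary libraries, where replicate 7 is 1 of 2.

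Slc13a3, a sodium-coupled carrier of succinate and other dicarboxylates, ran from 3.40 to 5.17 FPKM (median 4.49) in set 2 and from 1.44 to 2.36 (median 1.61) in set 4. The sets did not overlap. It fell by 1.0 ± 0.14 (SE, n = 6 per set; limma adjusted p = 0.00062), and by 0.90 in the ordinary libraries. Abcd2, a peroxisomal carrier of very long-chain fatty acids, ran from 2.78 to 4.48 FPKM and then from 1.14 to 2.06, without overlap. It fell by 0.81 (limma adjusted p = 0.0229), and by 0.90 in the ordinary libraries, and was the only called member among 8 tested female-biased genes.

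Slc39a4, a zinc importer, ran from 30.61 to 52.64 FPKM in set 2 and from 18.26 to 31.37 in set 4, so that the ends of the ranges overlapped. It fell by 0.74 (limma adjusted p = 0.0409), and by 0.49 in the ordinary libraries. Ces2a, a carboxylesterase that hydrolyses drugs and lipid esters, ran from 190 to 212 FPKM and then from 119 to 158. The gap between the sets was wide relative to the narrow range within set 2. It fell by 0.48 ± 0.09 (SE, n = 6 per set; limma adjusted p = 0.0229), and by 0.37 in the ordinary libraries. The other Ces2 genes tested, Ces2b, Ces2c, Ces2e and Ces2g, had differences between -0.14 and 0.22 and none was called.

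Glul encodes glutamine synthetase, the ammonia scavenger of the hepatocytes around the central vein. It ran from 296 to 371 FPKM (median 311) in set 2 and from 141 to 250 (median 199) in set 4. The sets did not overlap. The fall was 0.73 ± 0.15 (SE, n = 6 per set; limma adjusted p = 0.0462), and 0.49 in the ordinary libraries. Among 19 pericentral genes Glul was the only one called, 9 had an unadjusted p under 0.05, all lower, and the median was -0.33 (-0.19 in the ordinary libraries). Axin2, a feedback inhibitor and target of Wnt signalling, had medians of 2.42 and 1.14 FPKM (-0.53; limma adjusted p = 0.326). Cyp2a5 had medians of 350 and 232 (-0.73; limma adjusted p = 0.342). The 17 periportal genes, which mark the opposite end of the lobule, held no called gene and had a median of 0.11.

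Cyp3a11 was likewise the only called gene of 29 tested xenobiotic enzymes, of which 10 had an unadjusted p under 0.05, all lower. Their median was -0.22 (-0.17 in the ordinary libraries). Por, the electron donor of microsomal P450 enzymes, ran from 157 to 227 FPKM and then from 96.7 to 164, with a small overlap (-0.44; limma adjusted p = 0.255).

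Interferon-stimulated genes gave 3 of the 11 lower calls, and theirs was the only list with 3 or more called members. Ifit3, which binds viral RNA complexes with its relatives, ran from 5.13 to 8.90 FPKM (median 6.72) in set 2 and from 2.04 to 5.86 (median 2.85) in set 4. Replicate 9 of set 4 overlapped set 2 and the other 5 did not. It fell by 0.96 ± 0.20 (SE, n = 6 per set; limma adjusted p = 0.0492), and by 0.91 in the ordinary libraries.

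Gbp3, a guanylate-binding protein of cell-autonomous immunity, ran from 1.40 to 2.31 FPKM and then from 0.73 to 1.45, again with replicate 9 as the only overlap. It fell by 0.56 (limma adjusted p = 0.0492), and by 0.55 in the ordinary libraries. Ifit2, a relative of Ifit3 that was low throughout, ran from 0.60 to 1.27 FPKM and then from 0.22 to 0.54, without overlap. It fell by 0.48 (limma adjusted p = 0.0229), and by 0.34 in the ordinary libraries. The calls of Ifit3 and Gbp3 were each kept in 3 of the 12 fits without 1 library, and that of Ifit2 in 5.

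Of the 23 interferon genes tested, 22 had a negative difference, 19 had an unadjusted p under 0.05, all lower, and the median was -0.54. In the ordinary libraries the median was -0.35, with 22 of 23 again negative. Ifit1 (2.82 to 4.42 FPKM, then 0.90 to 2.60), Cmpk2 (1.88 to 3.37, then 0.69 to 1.47) and Rsad2 (2.53 to 4.65, then 0.75 to 2.29) did not overlap between the sets and were not called. Their differences were -0.86, -0.70 and -0.78. Ifit3b, a near-identical copy of Ifit3, had a difference of -0.67 (limma adjusted p = 0.116), and reads of the pair may be shared. Of the other guanylate-binding proteins, Gbp10 had the largest difference (-0.66; limma adjusted p = 0.102). These relatives were picked after their values were seen.

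The promoters of Ifit3 and Gbp3 are shown as those called interferon genes whose sequence held the core of the interferon-stimulated response element, searched on both strands as 2 copies of GAAA with any 2 bases between them (TTTC in the reverse orientation). Capitals mark the matches in the 250 bases before the RefSeq start on GRCm38.p6. Both genes lie on the plus strand, Ifit3 at chr19:34583279-34583528 and Gbp3 at chr3:142559794-142560043.
Ifit3: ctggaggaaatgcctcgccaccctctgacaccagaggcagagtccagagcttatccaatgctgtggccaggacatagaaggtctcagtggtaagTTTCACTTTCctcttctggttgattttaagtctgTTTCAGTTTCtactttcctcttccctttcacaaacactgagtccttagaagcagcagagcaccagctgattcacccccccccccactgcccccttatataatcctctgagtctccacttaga
Gbp3: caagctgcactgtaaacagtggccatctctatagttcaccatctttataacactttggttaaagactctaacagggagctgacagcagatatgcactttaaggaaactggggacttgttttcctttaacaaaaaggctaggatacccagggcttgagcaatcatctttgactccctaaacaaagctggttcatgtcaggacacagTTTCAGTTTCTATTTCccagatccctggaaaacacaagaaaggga
Ifit3 held 2 matches, beginning at -156 and -122, and Gbp3 held 2 that overlap, at -45 and -39, all in the reverse orientation. A second annotated start of Gbp3 and both starts of Ifit2 held 0 matches in this window. Of 32851 promoters, 978 (2.98%) held at least 1.

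Markers of Kupffer cells were lower in part of set 4, mainly in its replicates 9 to 12. All 14 tested markers had a negative difference and 13 had an unadjusted p under 0.05, but none was called. Their median was -1.06 over 12 libraries and -0.35 in the ordinary ones, where none of the 14 reached an unadjusted p under 0.05. Clec4f, a lectin restricted to Kupffer cells, ran from 19.94 to 39.18 FPKM (median 32.66) and then from 7.67 to 28.64 (median 11.52), a difference of -1.16 (limma adjusted p = 0.116), and -0.35 in the ordinary libraries. Timd4, a receptor for apoptotic cells, had medians of 3.33 and 1.25 (-0.94, and -0.56 in the ordinary libraries). Folr2, a folate receptor of tissue macrophages, had 8.53 and 3.30 (-1.09, and -0.37).

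The summed FPKM of the Kupffer markers ran from 191 to 358 (median 261) in set 2. In set 4 it was 186 and 260 in the ordinary replicates 7 and 8 and 74.6 to 131 in replicates 9 to 12. The 2 ordinary libraries of set 4 thus lay within or just below set 2 and the other 4 lay far below it. Set 2 replicate 6, which had the highest fragment value, summed to 236 and lay within the range of the ordinary libraries of set 2. In bulk tissue, fewer cells of a type and less RNA per cell cannot be told apart. Without set 2 replicate 6 and set 4 replicate 8, a choice made after the data were seen, all 14 markers were called lower, with a median of -1.29, beside 481 called genes in all. Replicate 8 had the highest Kupffer sum of set 4, so leaving it out enlarges the fall by itself and adds no support. Some interferon-stimulated genes are also expressed by Kupffer cells, and the part of this marker level in their difference was not tested.

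**Figure D3:**
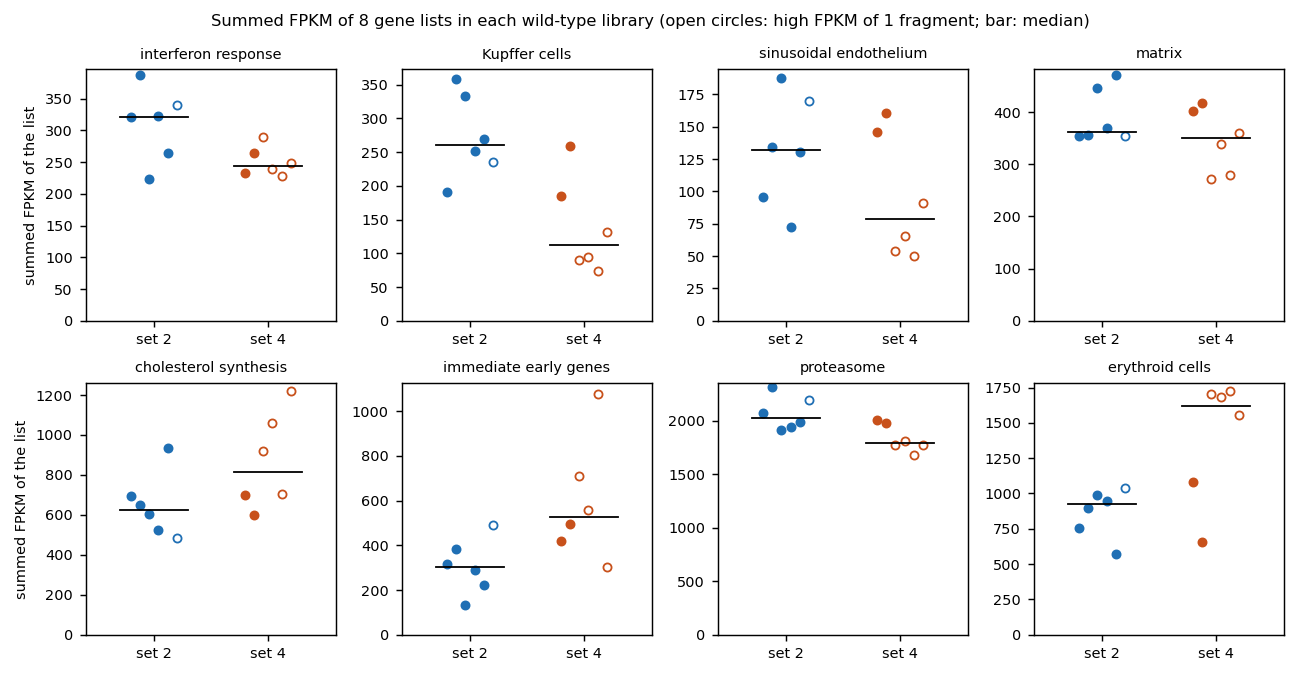
Summed FPKM of 8 gene lists in each wild-type library, set 2 beside set 4, with each axis starting at 0. Bars are medians and open circles are libraries with a high fragment value. The open circles of set 4 lie lowest for Kupffer cells (74.6 to 131) and highest for erythroid cells (1557 to 1722), while the filled circles of set 4 lie near set 2.

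Markers of sinusoidal endothelium and of erythroid cells in set 4 replicates 9 to 12 lay apart from those in replicates 7 and 8. For sinusoidal endothelium all 15 markers had a negative difference with a median of -0.41, whereas in the ordinary libraries 14 of 15 were positive with a median of 0.32. None was called. Their summed FPKM was 72.3 to 188 in set 2, with 170 in replicate 6, then 146 and 160 in set 4 replicates 7 and 8 and 49.99 to 91.4 in replicates 9 to 12. The scavenger receptor Stab2 had medians of 5.06 and 3.43 FPKM, a difference of -0.41, and 0.21 in the ordinary libraries. Erythroid markers summed to 569 to 1039 FPKM in set 2, with 1039 in replicate 6. In set 4 they summed to 1084 and 660 in replicates 7 and 8, and to 1557 to 1722 in replicates 9 to 12. Their median difference was 0.66, and 0.06 in the ordinary libraries. The 5 tested neutrophil markers had a median of 0.15 (0.32 in the ordinary libraries) and none was called. Among them S100a8 had a difference of 1.01 (limma adjusted p = 0.320), S100a9 0.78 (limma adjusted p = 0.482) and Ly6g 0.01 (limma adjusted p = 0.997).

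No matrix gene was called. Of 22 tested, 21 differences were negative, 7 had an unadjusted p under 0.05, and the median was -0.28 (-0.08 in the ordinary libraries). Col1a2, a chain of type I collagen, ran from 1.89 to 3.48 FPKM and then from 1.01 to 1.69 without overlap (-0.52; limma adjusted p = 0.325). Col3a1 had medians of 3.35 and 1.73 (-0.65; limma adjusted p = 0.413), and Sparc, a collagen-binding protein, 16.1 and 9.71 (-0.58; limma adjusted p = 0.242). For both Col1a2 and Col3a1 the difference was as large in the ordinary libraries, at -0.63 and -0.74.

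**Figure D4:**
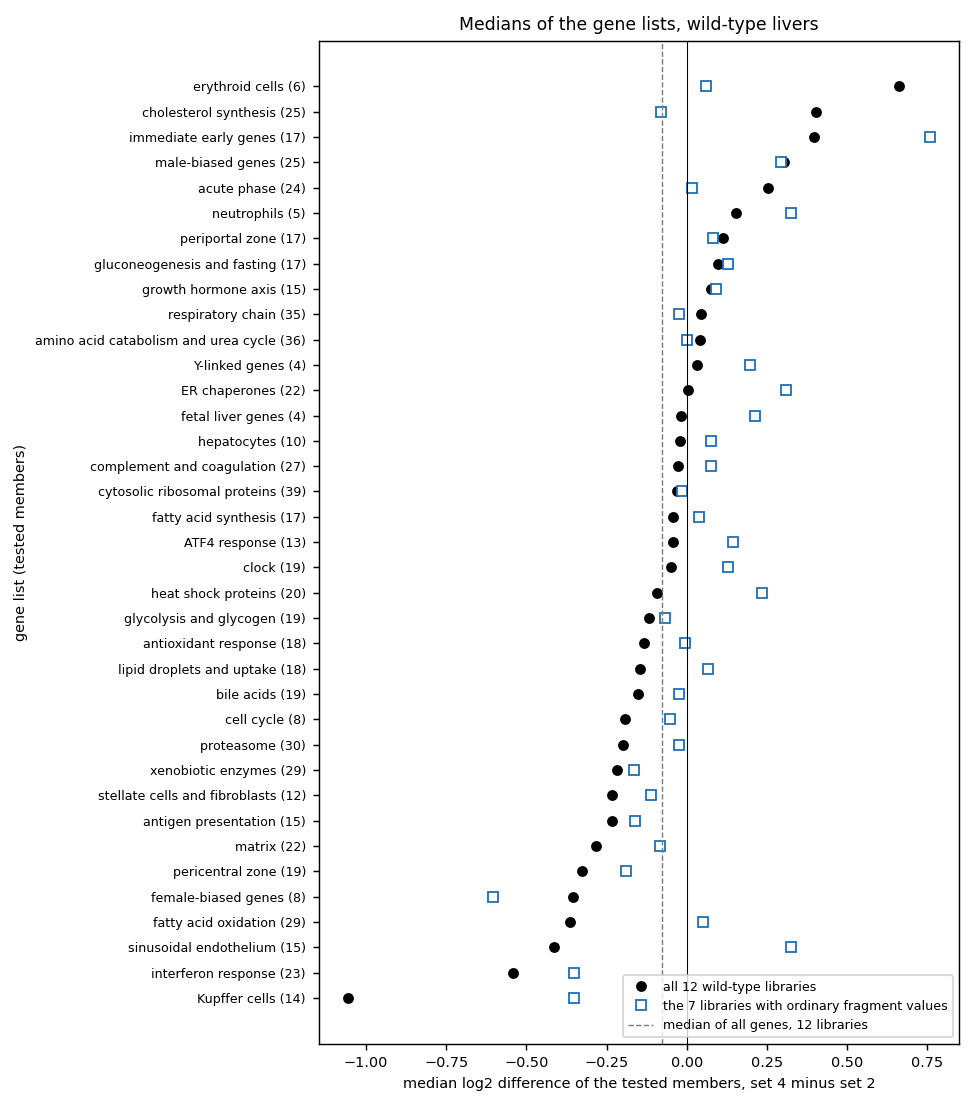
Median log2 difference (set 4 minus set 2) of the tested members of each list with at least 4 of them, over all 12 wild-type libraries (filled circles) and over the 7 with ordinary fragment values (open squares). The interferon median is negative in both (-0.54 and -0.35), that of sinusoidal endothelium changes sign (-0.41 and 0.32), and that of cholesterol synthesis drops from 0.40 to -0.08.

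Medians of several metabolic lists lay away from 0 over all 12 libraries and near 0 within the ordinary ones. Of 25 genes of cholesterol synthesis, 24 had a positive difference, 10 had an unadjusted p under 0.05 and none was called. Their median was 0.40, and -0.08 in the ordinary libraries. Cyp51, which demethylates lanosterol, had medians of 18.3 and 26.3 FPKM (0.69; limma adjusted p = 0.283) and Mvd, which makes isopentenyl diphosphate, 3.63 and 8.43 (0.93; limma adjusted p = 0.325). In the ordinary libraries these differences were 0.13 and -0.08.

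Fatty acid oxidation showed the opposite sign, with 28 of 29 differences negative, 7 at an unadjusted p under 0.05, none called and a median of -0.37. The median was 0.05 in the ordinary libraries. Vnn1, a pantetheinase and target of PPAR-alpha, had medians of 54.7 and 27.9 FPKM (-0.95; limma adjusted p = 0.116), and -0.46 in the ordinary libraries. Cpt2, which returns acyl groups to coenzyme A inside mitochondria, had medians of 85.6 and 56.9 (-0.42), and -0.03 in the ordinary libraries. All 30 proteasome subunits had a negative difference, 10 with an unadjusted p under 0.05 and none called. Their median was -0.20, and -0.02 in the ordinary libraries, beside -0.08 and 0.08 over all genes. It thus lay below the median of all genes in both. Genes of fatty acid synthesis, by contrast, held none at an unadjusted p under 0.05 (17 tested, median -0.04), and the 35 respiratory chain subunits likewise held none (median 0.04). Median-of-ratios scaling turned the median of fatty acid synthesis to 0.06, while the other list medians given here kept their sign under both scalings.

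In bile acid handling 1 of 19 tested genes had an unadjusted p under 0.05 and was higher, 5 were lower, and none was called. Abcg5 and Abcg8 form the canalicular sterol exporter. Abcg5 ran from 28.81 to 65.72 FPKM and then from 19.15 to 28.74, without overlap (-0.68; limma adjusted p = 0.266). Abcg8 had medians of 24.9 and 19.1 (-0.55; limma adjusted p = 0.228). Both remained negative in the ordinary libraries, at -0.54 and -0.41.

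The major urinary proteins (Mup), pheromone carriers made in large amounts by male mouse liver, took 16.5% ± 4.17 of the FPKM sum in set 2 and 22.6% ± 8.0 in set 4 (SD, n = 6 per set, 22 genes). Single libraries ran from 11.2% to 22.8% and from 11.7% to 33.6%. The difference of 6.05 percentage points was within the spread (two-sided exact permutation test, p = 0.126, where the smallest possible p is 0.00216). In the ordinary libraries it was -2.50 points. Without set 4 replicate 8 it was 8.23 points (exact permutation p = 0.0390). The share in set 4 replicates 9 to 12 was 23.8% to 33.6%, against 15.02% and 11.7% in replicates 7 and 8.

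Single Mup genes moved far without a call. Mup9 had the largest positive difference of all genes tested, 5.07 ± 1.73 (SE, n = 6 per set; limma adjusted p = 0.356), with 0 to 178 FPKM in set 2 and 3.07 to 14842 in set 4. In the ordinary libraries it was -1.59. Mup12 had medians of 275 and 1140 FPKM (2.14; limma adjusted p = 0.0973), with replicate 11 of set 4 at 5229, and a difference of 0.61 in the ordinary libraries. Mup22 had 3038 and 254 (-2.30; limma adjusted p = 0.482), and -0.47 in the ordinary libraries. Reads of these nearly identical genes are hard to assign, so the split among them is uncertain. Selenbp2, a male-biased liver gene, had 2.96 to 241 FPKM in set 2 and 164 to 601 in set 4, a difference of 3.16 ± 0.77 (SE, n = 6 per set; limma adjusted p = 0.116), and 2.07 in the ordinary libraries. The spread within set 2 was wide and the highest library of set 2 overlapped the lowest of set 4. Among 25 male-biased genes none was called, 8 had an unadjusted p under 0.05, all higher, and the median was 0.30 (0.29 in the ordinary libraries).

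Hamp2, a hepcidin-like gene, had the smallest p among the uncalled genes whose sets did not overlap, and was picked for that reason. It ran from 59.93 to 293 FPKM in set 2 and from 8.65 to 51.68 in set 4, without overlap. The difference was -2.02 ± 0.44 (SE, n = 6 per set; limma adjusted p = 0.062), and -2.50 in the ordinary libraries. Ddit4, a stress-induced inhibitor of mTORC1, had medians of 6.75 and 23.8 FPKM (1.72; limma adjusted p = 0.12), and a difference of 0.66 in the ordinary libraries. Cxcl1, a neutrophil-attracting chemokine, ran from 0.40 to 2.08 and then from 1.26 to 245.86 (2.21; limma adjusted p = 0.275), and 0.41 in the ordinary libraries.

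The same digits occur among the L2d13 livers, whose libraries are separate from the wild-type ones, so the set difference could be compared between genotypes. In L2d13, 638 genes (6.06%) were called between the sets. Of the 20 wild-type calls, 6 were among them: Serpine2 (1.46 in L2d13), Nat8 (1.5), Cyp3a11 (-0.66), Ces2a (-0.53) and Ifit2 (-0.49) in the same direction, and Parp16 in the opposite one. Serpine2 ran from 0.64 to 1.71 FPKM in L2d13 set 2 and from 3.05 to 7.99 in L2d13 set 4, again without overlap. Asic5 fell in wild type but had -0.27 in L2d13 (limma adjusted p = 0.628), where both sets lay between 3.16 and 8.22 FPKM. The difference between the genotypes was not called for Asic5 (-1.72; limma adjusted p = 0.190). List medians in L2d13 were 0.37 for cholesterol synthesis (5 called), -0.29 for fatty acid oxidation (2 called) and -0.39 for interferon genes (4 called). They were -0.67 for Kupffer cells (0 called), -0.86 for sinusoidal endothelium (6 called) and -0.56 for matrix (11 called), and -0.15 over all genes. The pericentral and xenobiotic medians, 0.07 and 0.10, had the opposite sign to wild type.

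The difference of the set effects, wild type minus L2d13, was itself called for 16 genes (0.152%). Parp16 had the smallest p. In L2d13 it ran from 13.17 to 27.25 FPKM in set 2 and from 7.21 to 9.07 in set 4, the reverse of the wild-type order. Its difference of set effects was 2.03 ± 0.24 (SE, n = 6 per group; limma adjusted p = 0.000142). Creb3l2, a transcription factor released from the endoplasmic reticulum membrane, gave 0.33 in wild type and -0.93 in L2d13. Sdf2l1 and Manf, proteins of the endoplasmic reticulum, gave 0.25 and 0.18 in wild type, where neither was called, and -1.56 and -1.48 in L2d13. They were the only 2 of 22 tested chaperone-list genes with a called difference between genotypes. The list as a whole also moved in L2d13, where its median was -0.84 and 14 of the 22 were called between the sets. In wild type its median was 0.003 and 0 were called.

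Several clock genes were among the 16. Nr1d1, which encodes the repressor REV-ERB-alpha, had the largest difference of set effects, -3.11 ± 0.51 (SE, n = 6 per group; limma adjusted p = 0.00541). In wild type it ran from 2.47 to 22.80 FPKM in set 2 and from 1.66 to 5.0 in set 4, a difference of -0.98 that was not called, with replicates 3 and 5 of set 2 well above the rest. In L2d13 it ran from 3.20 to 7.43 in set 2 and from 16.10 to 42.77 in set 4. Its relative Nr1d2 gave -0.50 in wild type and 1.06 in L2d13, the transcription factor Nfil3 gave 0.54 and -1.29, and the repressor Cry1 gave 0.16 and -0.84. Among the 19 tested clock genes none was called between the wild-type sets. No collection time is given in the labels.

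**Figure D5:**
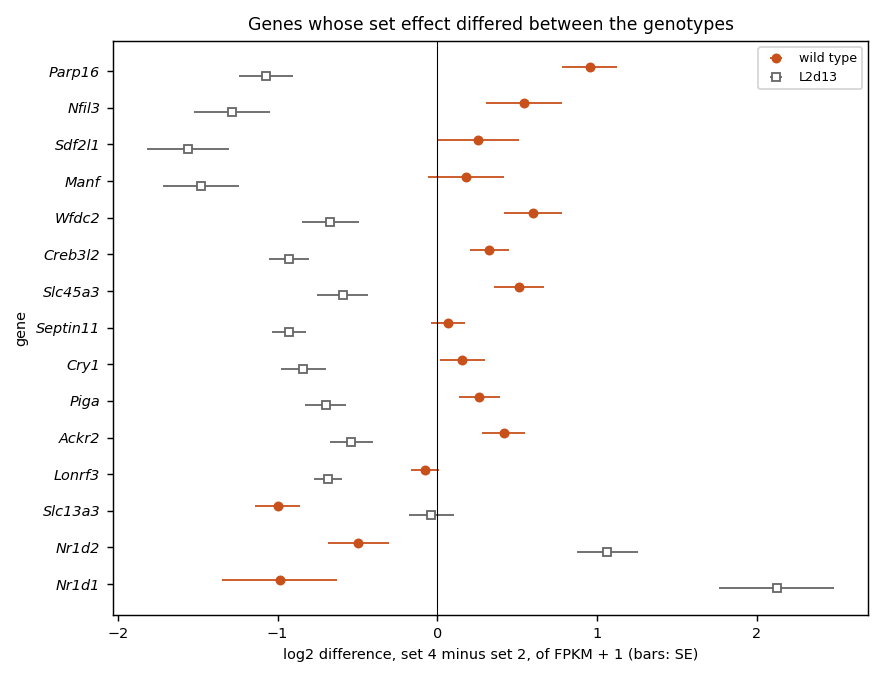
Log2 difference (set 4 minus set 2) with its SE in wild type (filled circles) and in L2d13 (open squares) for 15 of the 16 genes whose set effect differed between the genotypes. Nr1d1 runs from -0.98 in wild type to 2.12 in L2d13 and Parp16 from 0.95 to -1.07, while Slc13a3 lies at -1.0 and -0.04.

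Other members of the 16 were Septin11, a cytoskeletal GTPase (0.07 in wild type, -0.93 in L2d13), Piga, an enzyme of GPI-anchor synthesis (0.26 and -0.70), and the decoy chemokine receptor Ackr2 (0.42 and -0.54). Wfdc2 gave 0.60 and -0.67, Slc45a3 gave 0.51 and -0.59, and Lonrf3 gave -0.08 and -0.68. Slc13a3 was called in wild type, gave -0.04 in L2d13, and had a difference of -0.96 (limma adjusted p = 0.0417). In wild type Ackr2 did not overlap between the sets (0.89 to 1.61 FPKM, then 1.78 to 2.41) without being called. These genes past the 5 with the smallest p were named after their values were seen.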

How the data were processed

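RNA of wild-type and L2d13 mouse liver was sequenced on the BGISEQ-500 platform, per the labels. Values are FPKM per gene, computed by the authors and taken here as deposited; the submitters' processing notes name HISAT, Bowtie2, RSEM and the build GRCm38.p5, with no versions. Groups came from genotype and the digit in the sample names (columns of no sample: 0). No pair of wild-type libraries held identical values (0 pairs). Of 18171 gene identifiers, 18040 matched a symbol and 131 did not. Promoter sequences came from RefSeq (GRCm38.p6). Fragment values were estimated from 95 low genes, with a class limit of 1.02.

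The filter kept 10532 genes that reached an FPKM of 1 in 6 or more of the 24 libraries. For log2(FPKM + 1) a linear model was fitted (limma 3.58.1, R 4.3.3), with 1 mean per group and moderated variances following the mean. Folds and log2 differences are on that scale and understate changes of low genes. P-values were two-sided and adjusted by Benjamini and Hochberg within each contrast, called under 0.05. Tables and figures used Python 3.11.15. The procedure was tested on simulated data.

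The rule named up to 12 called genes per direction (predicted genes and pseudogenes passed over), 3 called members of lists with at least 3, markers, and 5 genes for the difference between genotypes. The other 2 called genes, relatives of called genes, uncalled genes of large difference and, per list, up to 3 members with the smallest p were named after their values were seen. The members and the 46 lists were chosen with earlier results of these data known. The alternatives were other scalings, pseudocounts, filters, covariates, weights and sets of libraries. A gene that the rule names for the difference between genotypes is not reported here, and counts still include it.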

Additional observations from a re-analysis of the deposited data

Results flagged for a closer look

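Single libraries were compared with the other 5 of their set for 201 combinations of a value and a set, and 35 lay far from the rest by Dixon's test. About 1 in 20 would apply to independent values with a normal spread. These values share libraries and gene families, and many genes were picked for their values, so the 35 cannot be read as an excess. Set 2 replicate 6 held 12 of them. Its fragment value was 1.29 and 10713 genes reached an FPKM of 1. Its FPKM was the highest of set 2 for Stab1 (16.85), Krt19 (2.17), Hba-a1 (572), Eif2s3y (48.65), Uty (5.40), Ces2b (10.43), Gbp9 (3.31) and Abcg5 (65.72), and the lowest for Slc10a2 (1.10) and Ces2e (14.59).

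Elsewhere in set 2, replicate 1 was highest for Cela1 (7.20 FPKM), replicate 2 for Vnn1 (96.67), replicate 4 for Ces2c (46.46) and Selenbp2 (241), and replicate 5 for Ces2a (212) and Gm21451 (1.27).

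In set 4, replicate 7 was highest for Asic5 (29.56 FPKM), Slc13a3 (2.36), Piga (3.36), Sdf2l1 (45.70), C4b (195) and Sparc (14.60). Replicate 8 was lowest for Nat8 (6.08) and highest for Vnn1 (52.90). Replicate 9 was highest for Ifit3 (5.86), Gbp3 (1.45), Gbp7 (2.06) and Gbp8 (1.63), which are all interferon-stimulated genes or their relatives. Replicate 11 was highest for Mup12 (5229), and replicate 12 for Sucnr1 (23.19), Ces2c (60.36), Ces2g (18.67) and Axin2 (1.83).

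A difference of the set effects between wild type and L2d13 was called by limma for 16 genes, of which 15 are given. On the log2 scale it was 2.03 for Parp16, 1.83 for Nfil3, 1.81 for Sdf2l1, 1.66 for Manf, 1.27 for Wfdc2, 1.25 for Creb3l2 and 1.10 for Slc45a3. It was 0.995 for Septin11, 0.99 for Cry1, 0.96 for both Piga and Ackr2, and 0.61 for Lonrf3. It was negative for Nr1d1 (-3.11), Nr1d2 (-1.56) and Slc13a3 (-0.96).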

How the results depend on the processing

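No paired analysis was possible because the groups compared share no replicate number. All 20 called genes that were tested kept their direction in every setting, while the counts of calls moved widely. Against 9 higher, 11 lower and 16 with a difference between genotypes, the fit without a filter gave 14, 14 and 6, the stricter filter (FPKM of at least 5) 6, 7 and 9, and the fragment value as a covariate 9, 13 and 32. Median-of-ratios scaling gave 12 higher and 5 lower (14 shared calls), quantile normalization 12 and 7 (16 shared), and the 12 wild-type libraries alone 3 and 4. Array weights gave 333, 1135 and 341. The ordinary libraries of both genotypes, 7 of wild type and 5 per set of L2d13, gave 1, 0 and 63. With median-of-ratios scaling they gave 1 higher and 1 lower. The high class, with 1 library of set 2 that is assumed to vary like the other groups, gave 146 and 2020. The cause of these shifts was not tested, and fewer libraries enter the last 3 fits and the fit of the wild-type libraries alone. Leaving out 1 library at a time gave 3 to 21 higher, 4 to 61 lower and 6 to 19 with a difference between genotypes. The highest total, 82, came without set 4 replicate 8. The other totals were 24, 8, 7, 16, 10 and 12 without set 2 replicates 1 to 6, and 11, 18, 11, 9 and 18 without set 4 replicates 7 and 9 to 12. Of the main calls 18, 8, 7, 15, 10 and 10 were shared without set 2 replicates 1 to 6, and 11, 20, 15, 11, 9 and 16 without set 4 replicates 7 to 12. Without set 2 replicate 6 and set 4 replicate 8 together, an alternative chosen after seeing the data, 86 were higher, 395 lower and 44 differed between genotypes. The Mup share difference of 6.05 points ran from 3.85 to 8.23 without 1 library, and was -2.50 in the ordinary libraries (exact permutation p = 0.571, smallest possible 0.0476). FPKM gives no fragment total, so the precision of low genes, such as Ifit2, Gbp3 and C4a, cannot be stated per library. Under the stricter filter the neutrophil list had no member left.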
